A study of Rattus norvegicus with 6 samples.

Results

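The 36 genes examined here encode the ligands, receptors and secreted antagonists of Wnt signalling, with 4 intracellular or target genes, in ankle synovial tissue of arthritic rats. They were listed by name as 12 ligands, 11 receptors, 9 antagonists and 4 intracellular or target genes, and matched in any case to the gene names of the array's non-control spots. Of the 36, 32 were matched, by 43 probes on 52 spots, among 16417 genes named through the reference on the array. Wnt16, Fzd8, Lrp6 and Dkk2 were matched by no spot and were not analysed here.

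All 6 samples came from male rats of 8 weeks in which adjuvant arthritis had been raised with Freund's complete adjuvant, given as 0.1 ml into the peritoneum each day for 18 days. The 3 arthritis samples (AA) received saline and the 3 triptolide samples (TP) received triptolide at 0.4 mg/kg, both daily for 14 days. Triptolide is a diterpenoid of the vine Tripterygium wilfordii. The labels give no strain and no healthy group was analysed here, so the values compare treated with untreated arthritis only. The labels do not say whether the replicates were separate animals or pools, and a p-value here therefore reflects only how far these samples lay apart, part of which may be technical.

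Wnt proteins are secreted, lipid-modified ligands that bind Frizzled receptors (Fzd genes) on the cell surface. In the canonical branch a Frizzled and the co-receptor Lrp5 or Lrp6 together stabilise beta-catenin (Ctnnb1), which enters the nucleus and activates target genes with factors of the TCF and LEF family. Secreted frizzled-related proteins (Sfrp1, Sfrp2, Sfrp4 and Frzb) and Wif1 bind the ligands, whereas Dickkopf proteins such as Dkk1 and sclerostin (Sost) bind the co-receptors. In inflamed joints the pathway is known for its part in the balance of bone formation and erosion and in the activation of synovial fibroblasts.

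An array value is the fluorescence of cRNA bound to a 60-base probe, so the probes of the members with the widest group differences are shown, in lower case throughout and 5′ to 3′, as the array's design lists them. Positions are on build rn4. The Wnt2 probes are given as a pair because they did not move together.
Wnt6, chr9:74115321-74115380, plus strand: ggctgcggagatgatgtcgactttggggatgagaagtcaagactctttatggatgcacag
Wnt2, brighter probe, spanning chr4:43687315-43689474, minus strand: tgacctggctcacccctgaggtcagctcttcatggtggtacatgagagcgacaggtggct
Wnt2, second probe, chr4:43682205-43682264, minus strand: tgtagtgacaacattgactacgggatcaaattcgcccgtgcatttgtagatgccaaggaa
Lrp5, chr1:206103085-206103144, minus strand: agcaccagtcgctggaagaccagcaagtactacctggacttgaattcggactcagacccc
Frzb, spanning chr3:63361004-63374245, minus strand: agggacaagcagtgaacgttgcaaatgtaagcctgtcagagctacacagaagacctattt
The brighter Wnt2 probe spans 2160 bases of the genome and that of Frzb 13242, so each crosses an exon junction. The others listed cover 60 adjoining bases. The Wnt2 probes start at bases 122 and 544 of the same transcript. No annotation of that build was used here, so exon numbers and untranslated regions are not given. Member probes held between 25.0% and 58.3% G and C.

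Each array carried 43379 non-control spots, of which 25850 to 28249 were well above background, none was saturated, and the number of arrays limits the precision. All 3 arthritis arrays lay on slide 1 with triptolide 1, whereas the other triptolide arrays lay on slide 2, so only triptolide 1 can be compared with arthritis within a slide. All 14 synovial fibroblast markers, among them the lubricin gene Prg4, were well above background on all 6 arrays. Of the cartilage genes, Comp, Cnmd, Col9a1, Col11a1 and Sox9 were well above background on all 6 arrays and Col2a1 on 5, while Acan, Hapln1 and Col10a1 were so on none. Of the bone genes described here, Spp1 and Runx2 were well above background on all 6 arrays, Bglap and Dmp1 on 5, Bmp3 on 4 and Alpl on 2, while Ibsp, Sp7 and Phex were so on none. Markers of other tissues differed widely between single arrays. The mean log2 level of 12 tested skeletal muscle markers, relative to its mean over all arrays, ran from -4.42 to 8.50 in arthritis (arthritis 2 the highest) and from -2.95 to 1.92 with triptolide, and 6 of the 12 had the higher mean with triptolide. Nerve and Schwann cell markers stood at 2.35 in triptolide 2 and between -1.19 and 0.20 on the other arrays.

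Levels below are log2 intensities minus the array's own 75th percentile, so 0 is a bright probe and the lowest signals well above background lay between -5.11 and -4.34. Levels of different probes were not compared, since brightness depends on the probe. A gene with several probes is described by the tested probe with the highest mean level. Testing required a signal well above background on 3 or more arrays, which 20 of the 32 matched members passed, 17 of them by signal on all 6.

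No Wnt member differed between triptolide and arthritis after adjustment over all probes. By limma, 0 of the 20 tested members and 0 of 25777 tested probes (0%) passed a Benjamini-Hochberg adjusted p under 0.05, and the lowest adjusted p among the members was 0.994. At an unadjusted p under 0.05 there were 2 members, Wnt6 and Lrp5, of 20 tested, where 3.24% of all tested probes passed. Wnt6 was higher with triptolide (2.01% of all probes were called in that direction) and Lrp5 lower (1.23%). Wnt6 reached the test through its triptolide arrays, so its place in these counts supports nothing. The groups did not overlap for 3 members (Wnt6, Lrp5 and Wif1), 15.0% against 8.64% of all tested probes. Of these Wnt6 was higher with triptolide (4.77% of all probes) and Lrp5 and Wif1 lower (3.87%). A 2-fold difference was reached by Wnt6 alone among the 20, against 2.56% of all tested probes. The median log2 difference was 0.11 over the 20 members and 0.023 over all tested probes, and 13 members had higher means with triptolide, where 53.9% of all probes did. The list's median over leave-one-out fits ran from -0.044 to 0.17, with the negative values without arthritis 2 (-0.0088) and without triptolide 2 (-0.044). Without both of these arrays it was -0.20, an alternative chosen after seeing the data, and within slide 1 it was -0.097. In bulk tissue, fewer cells of a type and less RNA per cell cannot be told apart.

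**Figure D1:**
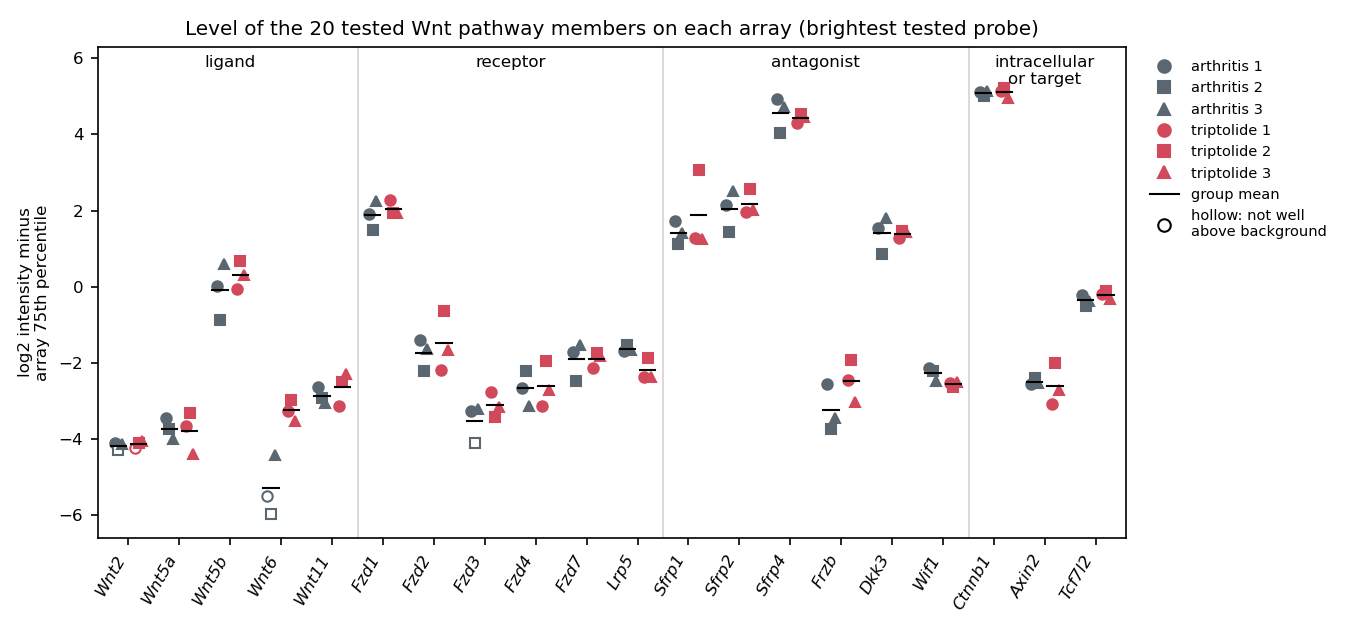
Level of each of the 20 tested members on the 3 arthritis and 3 triptolide arrays, as log2 intensity minus the array's 75th percentile, by role; symbols give the replicate, black bars the group mean, and hollow symbols spots not well above background. The groups lie apart for Wnt6, Lrp5 and Wif1 and overlap for the other members.

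Among the ligands, Wnt6 had the widest group difference. It encodes a ligand known mainly from epithelial and kidney tubule development. Its levels were -5.51, -5.98 and -4.43 in arthritis 1 to 3 and -3.26, -2.97 and -3.52 in triptolide 1 to 3. All 3 triptolide values lay above all 3 arthritis values, but the probe was well above background only on 1 arthritis array, arthritis 3, against all 3 triptolide arrays. It passed the detection filter largely through the group in which it was brighter, so its difference is given as a description. In intensity units the signals were 6.19, 4.63 and 14.9 in arthritis and 28.2, 43.6 and 39.0 with triptolide, where the dimmest spots well above background had 9.88 to 15.8. The measured log2 difference was 2.05 (SE 0.41), with an unadjusted p of 0.00212 and an adjusted p of 0.994 by limma, but 2 of the 3 arthritis signals behind it were at background level, so neither its size nor its p can be taken as exact. With arthritis 1 and 2 raised to the lowest signal well above background on their arrays, the log2 difference was 1.41, a 2.66-fold higher mean with triptolide. This too is a description and not a lower limit. With 3 arrays against 3, an exact two-sided permutation test of a single gene cannot go below p = 0.10. Within slide 1, where triptolide 1 alone stands for the treated side, the difference was 2.05. Slide as a block returns the same estimate by design, since slide 2 held triptolide arrays only. With normexp background correction, which adds an offset of 50 intensity units, it was 0.34, and with quantile normalization added 0.46.

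Wnt2, a ligand best known from lung and placental development, gave different readings on its probes. The probe brighter by its mean over all 6 arrays read -4.12, -4.30 and -4.15 in arthritis and -4.24, -4.10 and -4.05 with triptolide. The groups overlapped, with a difference of 0.062 (SE 0.14, 95% interval -0.29 to 0.41). This probe was not well above background in arthritis 2 and triptolide 1, so its reading is also near background. The second probe read -3.44, -3.30 and -4.50 in arthritis and -5.41, -4.50 and -4.98 with triptolide. Arthritis 3 and triptolide 2 read almost the same, and no triptolide array was well above background on the second probe, so it too passed the filter through 1 group only. With triptolide 1 and 2 raised to the lowest signal well above background on their arrays, the mean on that probe was 1.79-fold lower with triptolide. That value is a description and not a lower limit. The measured log2 difference was -1.22 (SE 0.39), and no p is read from it since its triptolide values are at background level. It was -1.66 within slide 1 and -0.42 and -0.33 under both settings with normexp. The averages of the pair differed by -0.58. Since the probes share 1 annotated transcript, the sign for Wnt2 rests on which probe is read.

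The groups of the other tested ligands overlapped. Wnt5b, a ligand of the non-canonical branch, read 0.019, -0.88 and 0.59 in arthritis and -0.068, 0.68 and 0.31 with triptolide, a difference of 0.40 (SE 0.40). Its dimmer probe differed by 0.13 (SE 0.48). Arthritis 2 was the lowest and triptolide 2 the highest array for Wnt5b, and without these arrays the difference was -0.18. Wnt11, which acts in tissue polarity, read -2.63, -2.94 and -3.07 in arthritis and -3.13, -2.50 and -2.31 with triptolide, and its difference of 0.23 (SE 0.26) became -0.26 within slide 1. Wnt5a, the non-canonical ligand best known from rheumatoid synovium, read -3.46, -3.75 and -4.02 in arthritis and -3.67, -3.33 and -4.39 with triptolide. The difference of Wnt5a was -0.055 (SE 0.31, 95% interval -0.80 to 0.69), and triptolide 2 lay above and triptolide 3 below all arthritis values.

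**Figure D2:**
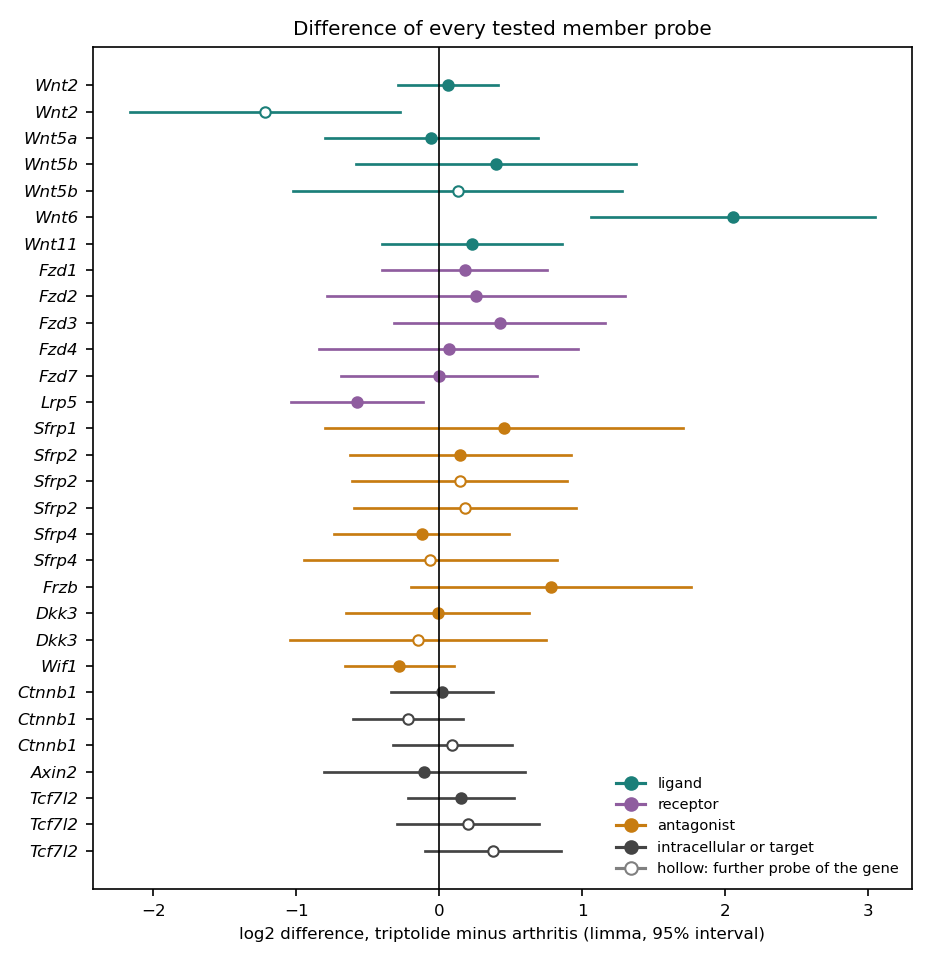
Log2 difference, triptolide minus arthritis, of the 30 tested member probes with 95% intervals from limma, coloured by role; hollow points are further probes of a gene. The intervals of Wnt6, Lrp5 and the second Wnt2 probe lie to 1 side of 0, and the others cross it.

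Among the receptors, Lrp5 alone had groups that did not overlap, at a signal well above background on every array. Lrp5 is the co-receptor through which canonical ligands act and is known for its role in bone mass. It read -1.69, -1.53 and -1.67 in arthritis and -2.37, -1.86 and -2.37 with triptolide. The arthritis arrays lay close together (mean -1.63 ± 0.089, SD, n = 3), and all triptolide arrays lay below them (mean -2.20 ± 0.29, SD, n = 3), triptolide 2 the nearest. The log2 difference was -0.57 (SE 0.19, 95% interval -1.03 to -0.11), a mean 1.49-fold higher in arthritis, with an unadjusted p of 0.0227 and an adjusted p of 0.994 by limma. It was -0.74 within slide 1 (by design the same estimate as with slide as a block), and -0.57 with the skeletal muscle marker mean as a covariate. With 1 array left out it ran from -0.74 to -0.49. The unadjusted p stayed under 0.05 without triptolide 2 and exceeded it without any other single array.

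The Frizzled receptors overlapped between groups. Fzd1 read 1.91, 1.48 and 2.24 in arthritis and 2.28, 1.94 and 1.94 with triptolide, a difference of 0.18 (SE 0.24). Fzd2, a receptor used by Wnt5a, read -1.39, -2.21 and -1.65 in arthritis and -2.19, -0.63 and -1.66 with triptolide. Triptolide 2 was the highest array for Fzd2 and the groups overlapped, and its difference of 0.26 (SE 0.43) became -0.44 within slide 1. Fzd3, known from axon guidance, differed by 0.42 (SE 0.31) and was not well above background in arthritis 2. Fzd4, the receptor for norrin in blood vessels, differed by 0.065 (SE 0.37) and by -0.47 within slide 1. Fzd7 differed by -0.0027 (SE 0.28, 95% interval -0.69 to 0.68). A further probe, assigned to Fzd7 by its transcript but carrying another name in the file, was not well above background on any array. It lies at chr9:58064790-58064849, distant from the tested probe at chr9:57886024-57886083. Which of these probes reports Fzd7 was not tested, so the difference given is that of the tested probe only.

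The groups of most secreted antagonists overlapped. Sfrp4, which binds Wnt ligands and is expressed by stromal fibroblasts, read 4.92, 4.05 and 4.71 in arthritis and 4.31, 4.54 and 4.47 with triptolide. All triptolide values of Sfrp4 fell inside the arthritis range, and the difference was -0.12 (SE 0.25, 95% interval -0.74 to 0.49). It was -0.38 with array weights (unadjusted p = 0.0434 by limma) and -0.43 without arthritis 2 and triptolide 2 (unadjusted p = 0.0361 by limma), settings in which 10.3% and 11.2% of all tested probes passed that threshold. Its second tested probe differed by -0.062 (SE 0.37), while its remaining probe, which lies at chr17:53033175-53033234 and so more distant from the others at 53121979 to 53127595, was not well above background on any array. Sfrp2, another ligand-binding antagonist of fibroblasts, read 2.15, 1.44 and 2.51 in arthritis and 1.96, 2.56 and 2.03 with triptolide, a difference of 0.15 (SE 0.32). The 3 probes of Sfrp2 differed by 0.14 to 0.18, with arthritis 2 the lowest array and triptolide 2 the highest on each. Dkk3, a Dickkopf family member of uncertain receptor binding, read 1.53, 0.86 and 1.81 in arthritis and 1.28, 1.47 and 1.43 with triptolide, a difference of -0.011 (SE 0.26).

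Frzb, an antagonist first known from cartilage, had the largest difference among the antagonists without passing the unadjusted threshold. It read -2.56, -3.73 and -3.45 in arthritis and -2.45, -1.92 and -3.04 with triptolide. Arthritis 1 lay above triptolide 3, and the mean was 1.72-fold higher with triptolide (log2 difference 0.78, SE 0.40, unadjusted p = 0.100, adjusted p = 0.994 by limma). The mean of the 6 tested chondrocyte markers was also highest in triptolide 2, at 1.56 above its mean over all arrays. That mean was lowest in triptolide 3, at -1.37. Single markers differed, with Comp highest in arthritis 3 and Col11a1 and Sox9 highest in arthritis 2. The part of these markers in the Frzb difference was not tested. Without arthritis 2 and triptolide 2 the difference was 0.26, and with array weights 0.19. In the other direction it was 1.12 without arthritis 1 (unadjusted p = 0.0247 by limma) and 1.06 without triptolide 3 (unadjusted p = 0.0468 by limma), and with normexp and quantile normalization it was 0.38 (unadjusted p = 0.0433 by limma).

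Wif1, which binds Wnt ligands, was the antagonist whose groups did not overlap. It read -2.14, -2.21 and -2.49 in arthritis and -2.53, -2.63 and -2.52 with triptolide, with arthritis 3 and triptolide 3 almost touching. The difference was -0.28 (SE 0.16, 95% interval -0.66 to 0.10; unadjusted p = 0.122, adjusted p = 0.994 by limma). Sfrp1, a ligand-binding antagonist, read 1.72, 1.12 and 1.41 in arthritis and 1.29, 3.07 and 1.25 with triptolide. Triptolide 2 alone was high for Sfrp1, its difference of 0.45 (SE 0.52) was -0.15 without that array, and its SE was the largest of the 20 members.

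Of the intracellular and target genes, the brightest probe of Ctnnb1, which encodes beta-catenin, varied little. It read 5.13, 5.01 and 5.15 in arthritis and 5.15, 5.23 and 4.96 with triptolide, a difference of 0.021 (SE 0.15, 95% interval -0.34 to 0.38). Its other probes differed by -0.22 (SE 0.16) and 0.092 (SE 0.17), so the sign of so small a difference changes with the probe. The last of these was printed 10 times on each array. After outlier spots were left out, 8 to 10 remained per array, and the SD between them was 0.073 to 0.13 on the log2 scale. That SD covers the spread of spots within an array at that brightness, and not the technical error between arrays.

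Tcf7l2, a TCF factor that acts with beta-catenin, differed by 0.15 (SE 0.15), 0.20 (SE 0.21) and 0.37 (SE 0.20) on its 3 probes. The brightest read -0.21, -0.51 and -0.37 in arthritis and -0.21, -0.11 and -0.32 with triptolide, overlapping. Axin2, a feedback inhibitor and widely used target of canonical signalling, read -2.56, -2.41 and -2.54 in arthritis and -3.10, -2.00 and -2.73 with triptolide. The arthritis arrays of Axin2 lay close together, while the triptolide arrays lay on either side of them, and the difference was -0.11 (SE 0.29, 95% interval -0.81 to 0.60). Within slide 1 it was -0.59, with triptolide 1 alone on the treated side.

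**Figure D3:**
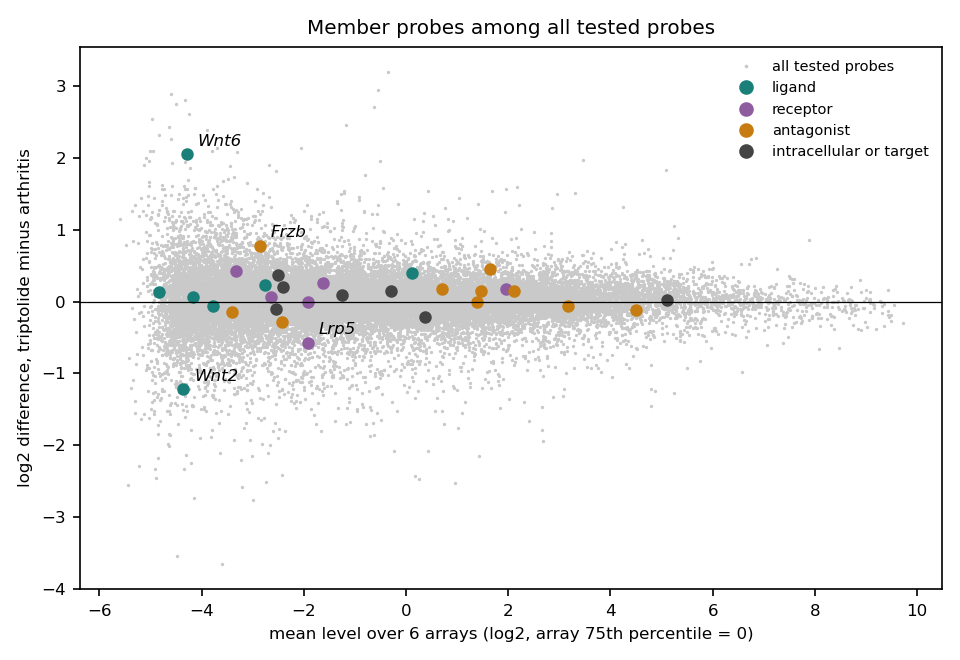
Log2 difference, triptolide minus arthritis, against mean level over the 6 arrays for the 25777 tested probes (grey) and the 30 member probes (coloured by role). Wnt6 and the second Wnt2 probe lie at the dim end, and members above a level of 0 lie within 0.5 of no difference.

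The remaining 12 matched members were not tested because of low signal. Wnt1, Wnt3, Wnt10b, the co-receptor ligands Dkk1 and Sost, and the nuclear factor Lef1 were not well above background on any of the 6 arrays, so no group difference could be detected for them at this signal. Dkk1, an inhibitor known from arthritic bone loss, read between -7.00 and -6.45, and the osteocyte gene Sost between -7.00 and -6.46. Wnt2b was well above background in triptolide 2 alone, at -2.28 against -7.10 to -5.69 on the other arrays. Fzd9 was so in arthritis 2 alone, at -2.35, with -7.10 to -4.77 elsewhere. Wnt4, known from kidney and muscle, stood at -2.37 in arthritis 2 and -4.49 in triptolide 3, and was not well above background on the other arrays. Arthritis 2 was also the array with the highest mean of skeletal muscle markers. Triptolide 2 had the highest means of nerve and smooth muscle markers. The part of these markers in the single-array signals was not tested. Wnt7b was well above background in arthritis 1 (-4.35) and triptolide 2 (-3.70), Fzd5 in arthritis 1 (-4.26) and Fzd6 in arthritis 3 (-4.82).

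**Figure D4:**
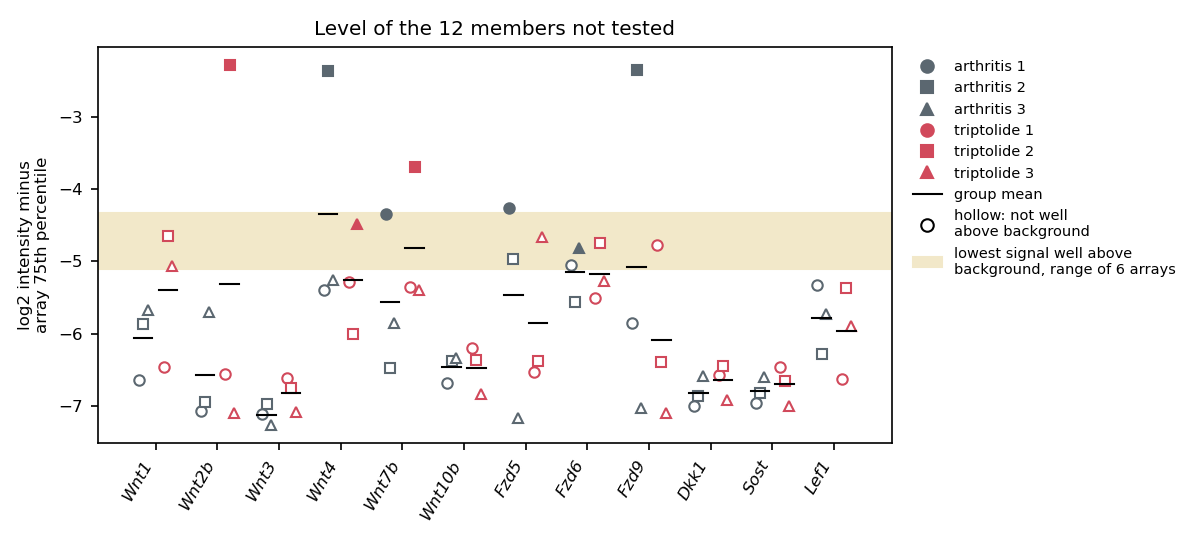
Level of each of the 12 matched but untested members on each array, in log2 intensity minus the array's 75th percentile; filled symbols are well above background and the shaded band gives the lowest such signal over the 6 arrays. Signals stand clear of the band in triptolide 2 for Wnt2b and Wnt7b and in arthritis 2 for Wnt4 and Fzd9.

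Several members took their extreme values on the same arrays. Of the 20 tested members, 13 had their lowest level of all arrays in arthritis 2 and 11 their highest in triptolide 2. The same count over all tested probes was not made, so these counts are not read as particular to the members. Over all tested probes, arthritis 2 and triptolide 2 had the lowest array weights (0.22 and 0.27, against 1.14 to 3.03 on the others). The mean level of the 6 antagonists, relative to their mean over all arrays, was -0.47 in arthritis 2, 0.45 in triptolide 2 and between -0.13 and 0.21 on the others. The 5 ligands stood at -0.60 and 0.53 on the same arrays, and the 6 receptors at -0.27 and 0.29. The mean of the 14 synovial fibroblast markers was lowest on these same arrays, at -0.54 in arthritis 2 and -0.37 in triptolide 2. Thus in triptolide 2 the Wnt roles were at their highest where that mean was low. Not every marker followed the mean, as Col1a1 and Col1a2 were lowest in triptolide 3. The list means of smooth muscle and pericyte (1.69), chondrocyte (1.56) and endothelial markers (0.82) were highest in triptolide 2, though not every marker was. The part of these markers in the Wnt levels was not tested.

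**Figure D5:**
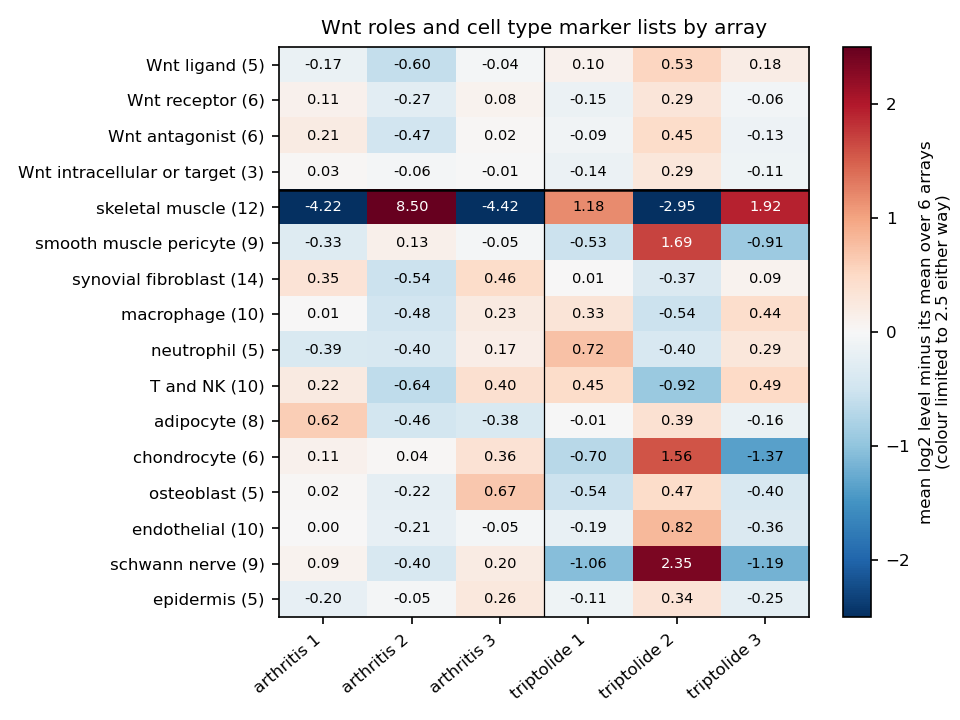
Mean log2 level of each Wnt role and each cell type marker list on each array, minus its mean over the 6 arrays, with the number of tested genes in parentheses and the colour limited to 2.5 either way. All 4 Wnt roles are highest in triptolide 2, and ligands, receptors and antagonists are lowest in arthritis 2.

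Beyond the members, 71 further genes of Wnt signalling were listed, of which 58 were on the array and 47 were tested. By limma 0 passed the adjusted threshold. At an unadjusted p under 0.05 there were 2, both higher with triptolide (4.26% of 47 against 3.24% of all tested probes). Lgr5, a receptor for R-spondins that strengthens Wnt signals, read -4.62, -4.18 and -3.56 in arthritis and -3.25, -2.23 and -2.79 with triptolide. All triptolide values of Lgr5 lay above all arthritis values, with a difference of 1.36 (SE 0.36, unadjusted p = 0.00885, adjusted p = 0.994 by limma), which was 0.87 within slide 1 and 0.39 with normexp. Bcl9, a co-activator of beta-catenin, differed by 0.79 (SE 0.27, unadjusted p = 0.0242, adjusted p = 0.994 by limma) and by 0.40 without arthritis 2 and triptolide 2. With slide as a block neither gene passed that threshold: by limma, Lgr5 had an unadjusted p = 0.122 and Bcl9 an unadjusted p = 0.125. Groups did not overlap for 5 of the 47 genes, 10.6% against 8.64% of all tested probes. The 3 not yet named, taken after their values were seen, were Wls, the carrier that exports Wnt ligands (difference -0.47, SE 0.22), the tankyrase gene Tnks2 (-0.25, SE 0.14) and the pathway inhibitor gene Nkd2 (0.64, SE 0.38).

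Promoters of 24 of the 36 members were found in RefSeq (build GRCr8), and the 250 bases before each start were searched on both strands for CTTTGAT and CTTTGAA, forms of the sequence bound by TCF and LEF factors. The letters of either occurred in 2 members, Axin2 and Dkk1, 8.33% of the 24, against 7.58% of all 33469 promoters. Axin2 held both forms. These matches are a description of the letters only.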

How the data were processed

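Gene expression was measured on 1-colour Agilent arrays from 0.5 ug of total RNA labelled with Cy3, per the labels' protocols. The deposited intensity values of each spot were written by Feature Extraction 10.7.3.1 per the file headers (version 9.1 per the submitters' processing notes). Spatial and multiplicative detrending were switched on per the file headers, as were surrogates, which stand in for signals too dim to measure, so levels of spots not well above background are approximate. A deposited table of log2 values of 167 rows (arthritis columns with medians 4.94, 5.54 and 4.93, triptolide columns with 4.68, 4.74 and 4.84) holds 1 member probe, the dimmer tested probe of Sfrp4. Its normalization is unknown and it was not used further.

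Control and outlier-flagged spots were left out, the log2 75th percentile of each array was subtracted, and spots of a probe were averaged. Triptolide minus arthritis was fitted in limma 3.58.1 (R 4.3.3) with p-values adjusted by Benjamini-Hochberg over 25777 probes. The fit was run on simulated data with independent, equal noise and no slide effect or outlying array, which checks the code only. RefSeq (GRCr8 table, names only) matched the accession of 18028 of 41012 probes, the symbol of 3169 more and a synonym of 402, whereas 19413 stayed as the array design names them. Described in full were members with non-overlapping groups or an unadjusted p under 0.05, the 2 brightest per role and those with probes of opposite sign, plus others of interest chosen after their values were seen. Members and lists were chosen with earlier results of these data known. The main fit did not pair samples by replicate number. Deviations from the group mean correlated at -0.16, -0.13 and 8.3e-04 across probes for same-numbered arrays. For differently numbered arrays they correlated at -0.10 to 0.16. With 3 arrays per group these values cannot show whether the samples were paired. Alternatives were normexp background, quantile or median scaling, the dim-probe filter, slide, replicate number, array weights, a muscle covariate, averaged probes and leaving out arrays.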

Additional observations from a re-analysis of the deposited data

How the results depend on the processing

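Under the 20 alternatives, 0 members passed the adjusted threshold, the lowest adjusted p being 0.264. Lrp5 passed an unadjusted p under 0.05 by limma in 15 of 20. No such count is read for Wnt6, which reached the test through its triptolide arrays. Of the 20 tested members, 6 kept their sign wherever they were tested: Fzd3, Lrp5, Frzb, Wif1, Tcf7l2 and Wnt6. Nothing is read from this for Wnt6, for the same reason. The same count over all tested probes was not made, so it is not read as particular to the members. With the filter at all 6 arrays Wnt6, Wnt2 and Fzd3 were no longer tested. Dim signal and 3 arrays per group limit the precision. The cause of the changes listed here was not tested.

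The count of members at an unadjusted p under 0.05, 2 in the report, was 1 with normexp (where 3.66% of all tested probes passed), 4 with normexp and quantile normalization (4.86%), and 1 with the filter at all 6 arrays (2.88%), against 3.24% in the report. With array weights it was 3, Sfrp4 joining Wnt6 and Lrp5 (10.3%). With averaged probes Wnt2 joined Wnt6 and Lrp5 (3.25%), though its second probe was at background level with triptolide. Leaving out single arrays gave 1 to 2 (2.40% to 6.43%). For the other pathway genes the count, also 2, was 5 with normexp and quantile normalization, 0 with slide as a block (3.77% of all tested probes), 6 with the muscle covariate (7.06%), and 1 to 3 with an array left out. With the replicate number as a block the members at an unadjusted p under 0.05 numbered 2 and the other pathway genes 1 (4.14% of all tested probes), and Wnt6 and Lrp5 differed by 2.05 and -0.57. Without arthritis 2 and triptolide 2 (chosen after seeing the data), 24 probes passed the adjusted threshold, none of them a member. The members past the unadjusted one were Wnt6, Lrp5 and Sfrp4, where 11.2% of all tested probes passed. Of the other pathway genes, 5 of 47 (10.6%) passed it, and the members' median was -0.20.

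Signs turned as follows. Blocking on slide and restricting to slide 1 are the same comparison. It gave differences of -0.044 for Wnt2, 0.068 for Wnt5a, -0.26 for Wnt11, -0.44 for Fzd2, -0.47 for Fzd4, -0.13 for Sfrp1 and -0.071 for Sfrp2. Without arthritis 2 and triptolide 2 they were -0.0073 for Wnt2, -0.18 for Wnt5b, -0.40 for Fzd2, -0.037 for Fzd4, -0.30 for Sfrp1, -0.33 for Sfrp2 and -0.079 for Ctnnb1. Array weights gave -0.22 for Fzd2, -0.18 for Sfrp1, -0.22 for Sfrp2 and -0.088 for Ctnnb1. Normexp gave -0.054 for Wnt2 and 0.026 for Sfrp4 (0.019 with quantile normalization), median scaling -0.013 for Ctnnb1, slide as a random block 0.033 for Fzd7 and 0.0060 for Dkk3, the muscle covariate 0.0034 for Fzd7, and averaged probes -0.58 for Wnt2 and -0.035 for Ctnnb1. With an array left out the range was -0.41 to 0.14 for Axin2, -0.037 to 0.10 for Ctnnb1, -0.28 to 0.20 for Dkk3, -0.023 to 0.36 for Fzd1, -0.17 to 0.60 for Fzd2, -0.26 to 0.33 for Fzd4, -0.29 to 0.18 for Fzd7, -0.15 to 0.76 for Sfrp1, -0.15 to 0.39 for Sfrp2, -0.38 to 0.058 for Sfrp4 and -0.29 to 0.24 for Wnt5a.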
